A study of Homo sapiens with 6 samples.

Results

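The transcripts described here encode 10 proteins of the neuronal growth cone: the membrane-bound proteins GAP43, BASP1, MARCKS and MARCKSL1, the 5 collapsin response mediator proteins (CRMPs) CRMP1, DPYSL2, DPYSL3, DPYSL4 and DPYSL5, and the calponin-family protein TAGLN3. They were taken by symbol, and all 10 were found among the 26372 genes of the deposited table. All 10 also passed the filter for testing, an average over the 6 libraries of 1 FPKM or more (fragments mapped to a gene, scaled by its length and by the library's mapped total), which 12164 genes passed. The cells were BE(2)-M17, an established human neuroblastoma line often called M17. The 3 control libraries, numbered 2, 3 and 4, came from M17 cells given as control, and the 3 knockdown libraries, with the same numbers, from M17 cells in which GOMAFU was knocked down, a long non-coding RNA whose row in the table is MIAT. Per the labels, cells were transfected with 100 pmol of small RNA by a lipid reagent, and polyadenylated RNA was read as pairs of 150 bases. The labels name neither the small RNA given to the controls nor the time to harvest. Nothing says that the replicates were separate cultures, so p-values measure the spread between these libraries, which may be technical.

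The growth cone is the motile tip of a growing neurite, where signals from guidance cues are turned into changes of actin filaments and microtubules. GAP43, BASP1, MARCKS and MARCKSL1 are attached to the inner face of the plasma membrane by lipid anchors, bind acidic phospholipids, and are released or retuned by protein kinase C and calmodulin. The CRMPs form tetramers, bind tubulin dimers and carry signals from semaphorin receptors, and phosphorylation by CDK5 and GSK3 lowers their grip on tubulin. In neuroblastoma cells, as in young neurons, these genes are known as part of the neurite-forming programme.

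MIAT itself stood at 5.38, 5.96 and 8.57 FPKM in control replicates 2, 3 and 4 and at 1.27, 1.32 and 3.21 FPKM in the knockdown libraries of the same numbers, so the groups did not overlap. Of 8 noradrenergic neuroblastoma markers 6 reached the filter, with MYCN at 1710 to 2169 FPKM and HAND2 at 515 to 606 FPKM, while TH (at most 0.09 FPKM) lay near 0. None of 6 Schwann cell and 6 leukocyte markers reached the filter. Knockdown replicate 4 stood apart: its log2(FPKM + 1) values correlated with the other 5 libraries at 0.940 to 0.956 across genes, where the other pairs reached 0.997. The summed level of 30 interferon response genes was 47.1 to 55.2 FPKM in the controls and 550, 87.1 and 12130 FPKM in knockdown replicates 2, 3 and 4. Depth in reads is unknown, but steps between low values put each library at 0.972 to 1.36 times the depth of control replicate 3.

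All 10 growth cone transcripts were expressed at a moderate to high level, over a wide range. MARCKSL1 was the most abundant at 359.9 ± 28.0 FPKM in the controls, within the top 1.76% of the genes tested, and DPYSL4 the least at 18.5 ± 0.25 FPKM, within the top 36.1% (SD, n = 3). In between, in falling order of control mean, lay CRMP1, BASP1, MARCKS, DPYSL3, DPYSL2, GAP43, TAGLN3 and DPYSL5. The control values of neighbours overlapped for BASP1 and MARCKS, for GAP43 and TAGLN3, and for TAGLN3 and DPYSL5, so their order was not resolved. DPYSL3 and DPYSL2 came close, with 77.7 FPKM in the lowest DPYSL3 control against 77.2 FPKM in the highest DPYSL2 control. Together the 10 transcripts summed to 1106, 1087 and 1109 FPKM in control replicates 2, 3 and 4 and to 1112, 1109 and 1015 FPKM in the knockdown libraries.

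**Figure D1:**
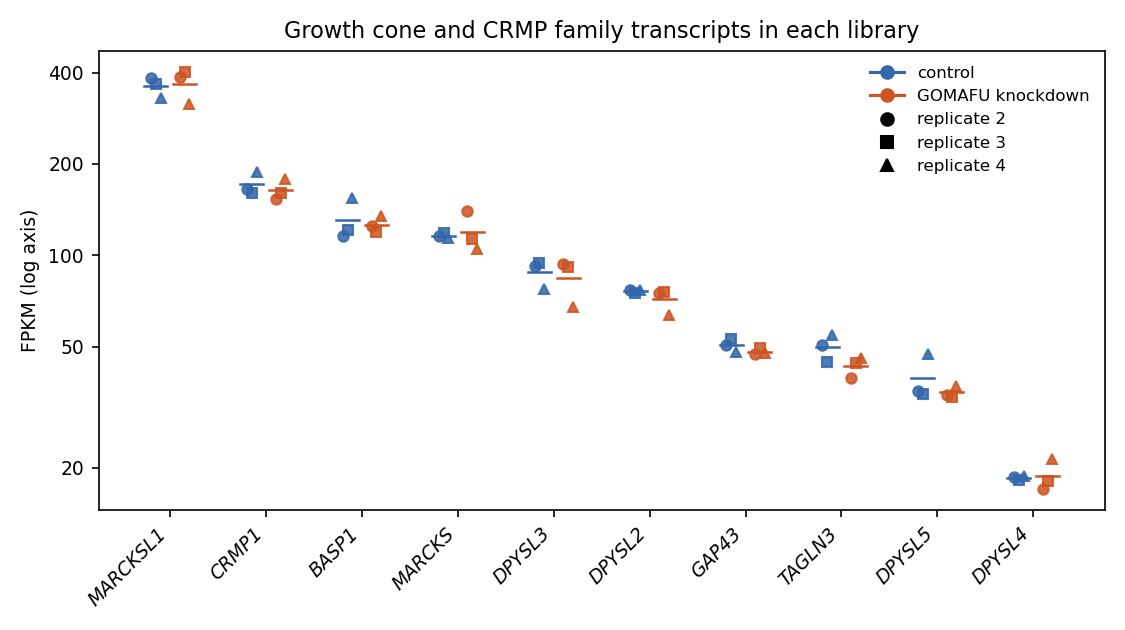
FPKM of the 10 growth cone and CRMP genes (log axis), ordered by control mean, in the 3 control and the 3 GOMAFU knockdown libraries; each marker is 1 library, its shape the replicate number, and each bar a group mean. Control and knockdown values overlap for every one of the 10 genes, from MARCKSL1 at 314 to 403 FPKM down to DPYSL4 at 17.04 to 21.3 FPKM, and the triangles of replicate 4 sit on the same side of the other replicates in both groups for most genes.

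No growth cone transcript passed the test for a change with GOMAFU knockdown. For none of the 10 did the 3 knockdown values all lie above, or all below, the 3 controls, where 8.36% of the 12164 genes tested had groups without overlap (4.01% higher and 4.35% lower in the knockdown). By limma on log2(FPKM + 1), with Benjamini-Hochberg adjustment over all genes tested, 0 of the 10 passed an adjusted p under 0.05 (each adjusted p = 0.9998), and 0.0% of all genes did. At an unadjusted p under 0.05 there were also 0 of the 10, against 2.16% of all genes. MIAT itself, the RNA knocked down, was not called (log2 difference -1.42, unadjusted p = 0.00125, adjusted p = 0.9998, limma). A missing call therefore does not show that a gene was unchanged. The fitted difference was below 0 for 7 of the 10 and above 0 for 3, with a median of -0.06 on the log2 scale, whereas 53.3% of all genes were fitted below 0 with a median of -0.0081. Exact two-sided permutation tests of single genes gave p-values of 0.2 to 1, where 3 against 3 cannot go below 0.1.

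GAP43, a substrate of protein kinase C that binds calmodulin and is the classic marker of growing axons, had the smallest standard error of the 10. It lies at chr3:115623324-115721490 on the plus strand (GRCh38, GENCODE 29). Its values were 50.5, 52.9 and 48.1 FPKM in control replicates 2, 3 and 4 and 47.4, 49.5 and 47.7 FPKM in the knockdown libraries. The highest value was 1.12 times the lowest, and knockdown replicate 3 lay above control replicate 4. The knockdown mean of 48.2 ± 1.16 FPKM was 95.4% of the control mean of 50.5 ± 2.41 FPKM (SD, n = 3; log2 difference -0.07, SE 0.07). The 95% confidence interval of the fitted ratio, taken on FPKM + 1 here and below, ran from 85.3% to 107% of control.

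BASP1, a GAP43-like protein that is abundant in axon endings, lies at chr5:17065598-17276843 on the plus strand. It stood at 116, 122 and 155 FPKM in control replicates 2, 3 and 4 and at 125, 119 and 134 FPKM in the knockdown libraries. Control replicate 4 was the highest of all, and knockdown replicate 4 the highest of its group. The means were 131 ± 21.0 and 126 ± 7.78 FPKM (SD, n = 3), a log2 difference of -0.04 (SE 0.12) that became 0.09 without control replicate 4. The interval of the fitted ratio, 79.7% to 119%, was among the wider ones.

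MARCKS and MARCKSL1 are paralogs whose basic effector domain binds membrane phospholipids and calmodulin and is phosphorylated by protein kinase C. MARCKS (chr6:113857362-113863471, plus strand) measured 116, 118 and 114 FPKM in control replicates 2, 3 and 4 and 139.6, 113 and 105 FPKM in the knockdown libraries. The coefficient of variation was 1.81% for the controls but 15.2% for the knockdown libraries, with replicate 2 above and replicates 3 and 4 below every control. The log2 difference of MARCKS, 0.03 (SE 0.11; interval of the ratio 85.05% to 123%), became -0.09 without knockdown replicate 2. MARCKSL1 (chr1:32333832-32336379, minus strand) had 384, 367 and 329 FPKM across control replicates 2, 3 and 4 and 386, 403 and 314 FPKM across the knockdown libraries. Both libraries numbered 4 were the lowest of their group. The difference of MARCKSL1 was 0.03 (SE 0.12), with an interval of the ratio from 84.2% to 123%. It turned to -0.04, -0.01 and -0.04 without control replicate 4, knockdown replicate 2 and knockdown replicate 3. MARCKSL1 exceeded MARCKS by 3.10 ± 0.21 times in the controls and 3.10 ± 0.40 times in the knockdown libraries (FPKM ratio within a library, SD, n = 3).

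The CRMP family together summed to 389, 383 and 409 FPKM in control replicates 2, 3 and 4 and to 374, 380 and 368 FPKM in the knockdown libraries. Every knockdown sum thus lay below every control sum, by means of 394 ± 13.6 and 374 ± 6.13 FPKM (SD, n = 3), although no single member had groups apart. The gap between the highest knockdown sum and the lowest control sum was smaller than the spread of either group. The sum has no test, and 4.35% of all genes tested were lower without overlap.

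CRMP1, which acts in the growth cone response to semaphorin 3A and was the most abundant of the family here, lies at chr4:5748084-5893058 on the minus strand. It measured 166, 161 and 188 FPKM in control replicates 2, 3 and 4 and 153, 161 and 179 FPKM in the knockdown libraries. Replicate 4 was the highest in both groups, and the remaining 4 libraries lay between 153 and 166 FPKM. The log2 difference was -0.06 (SE 0.09; interval of the ratio 82.1% to 112%) and reached 0.0070 without control replicate 4.

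DPYSL3, known as CRMP4, which bundles actin filaments in growth cones, ran the other way between replicates. It lies at chr5:147390811-147510056 on the minus strand and had 92.5, 94.1 and 77.7 FPKM across control replicates 2, 3 and 4 and 94.0, 91.2 and 67.4 FPKM across the knockdown libraries. The libraries numbered 4 were the 2 lowest of the 6, and the other 4 lay between 91.2 and 94.1 FPKM. The log2 difference, -0.07 (SE 0.15), became 0.08 without knockdown replicate 4, and the interval of the ratio, 74.7% to 121%, was wide.

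Since CRMP1 and DPYSL3 lay on opposite sides of the other replicates in both libraries numbered 4, the 250 bases before the outermost RefSeq start of each gene are shown (RefSeq, GRCh38.p14, read along the gene, minus strand). Capitals mark GC boxes (GGGCGG or its complement CCGCCC) and E-boxes (CANNTG, the same on both strands). The window of CRMP1 spans chr4:5893087-5893336 and that of DPYSL3 spans chr5:147510069-147510318, and neither holds an annotated exon.
CRMP1: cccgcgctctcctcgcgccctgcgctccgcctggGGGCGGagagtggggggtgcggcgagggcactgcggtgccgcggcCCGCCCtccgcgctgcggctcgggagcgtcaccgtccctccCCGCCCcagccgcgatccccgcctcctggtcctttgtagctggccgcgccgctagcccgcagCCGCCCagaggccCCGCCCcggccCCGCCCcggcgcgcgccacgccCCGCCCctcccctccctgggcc
DPYSL3: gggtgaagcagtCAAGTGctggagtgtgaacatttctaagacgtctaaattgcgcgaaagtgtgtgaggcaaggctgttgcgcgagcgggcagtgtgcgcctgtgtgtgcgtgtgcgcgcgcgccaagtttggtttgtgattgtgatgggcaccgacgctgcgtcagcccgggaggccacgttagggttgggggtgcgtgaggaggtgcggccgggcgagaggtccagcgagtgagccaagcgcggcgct
The CRMP1 window held 7 GC boxes and 0 E-boxes at 82.8% G or C, and the DPYSL3 window 0 GC boxes and 1 E-box at 62.8%. Other starts differed from these. The DPYSL3 window at chr5:147453693-147453942 held 3 GC boxes and 1 E-box, and the other CRMP1 windows held 1 to 5 GC boxes and 0 to 1 E-boxes. The contrast therefore holds for the outermost starts only, and its part in the levels was not tested. Among 35114 RefSeq windows of this length, 42.6% held a GC box and 61.8% an E-box. A match is a description of the letters only.

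DPYSL2, known as CRMP2, which promotes microtubule assembly in axons, lies on chromosome 8. It was at 76.6, 75.4 and 77.2 FPKM in control replicates 2, 3 and 4 and at 75.1, 75.9 and 63.8 FPKM in the knockdown libraries. The other 5 libraries lay between 75.1 and 77.2 FPKM, and knockdown replicate 4 alone was lower. The log2 difference of DPYSL2 was -0.10 (SE 0.09; interval of the ratio 81.1% to 108%), and -0.02 without that library.

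DPYSL5, known as CRMP5, is found in developing neurons and lies at chr2:26847747-26950351 on the plus strand. It measured 35.9, 34.8 and 47.2 FPKM in the controls and 34.7, 34.2 and 37.1 FPKM in the knockdown libraries. Control replicate 4 was far above the other 5 values. The log2 difference was -0.14 (SE 0.12; interval of the ratio 74.3% to 111%), and without control replicate 4 it was -0.00096.

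DPYSL4, known as CRMP3, was the scarcest of the family and lies at chr10:132186900-132205776 on the plus strand. Its values were 18.6, 18.2 and 18.7 FPKM in the controls and 17.04, 18.03 and 21.3 FPKM in the knockdown libraries. The knockdown values lay on both sides of the tight control range, with replicate 4 the highest. The difference of 0.01 (SE 0.09; interval of the ratio 86.6% to 118%) became -0.07 without knockdown replicate 4.

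TAGLN3, a neuronal relative of transgelin and calponin that binds actin and microtubules, had the largest fitted difference of the 10 and the smallest p. It lies at chr3:111998664-112013887 on the plus strand. Its values were 50.8, 44.5 and 54.6 FPKM in control replicates 2, 3 and 4 and 39.6, 44.2 and 46.0 FPKM in the knockdown libraries. The lowest value of all was in knockdown replicate 2 and the highest in control replicate 4, but knockdown replicate 4 lay above control replicate 3, so the groups overlapped. The knockdown mean of 43.3 ± 3.30 FPKM was 86.6% of the control mean of 49.97 ± 5.08 FPKM (SD, n = 3). The log2 difference was -0.20 (SE 0.10, unadjusted p = 0.0852, adjusted p = 0.9998, limma), with an interval of the ratio from 73.7% to 103%. It stayed below 0 in all 17 alternatives run, between -0.28 and -0.14, though some of these cannot change the fitted difference.

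**Figure D2:**
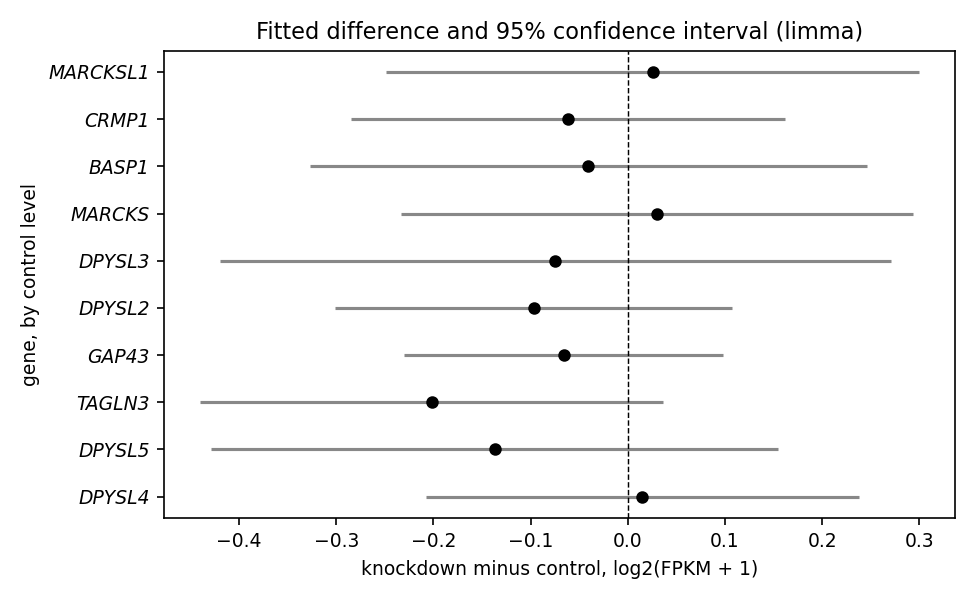
Fitted difference of each of the 10 genes, knockdown minus control on the log2(FPKM + 1) scale (points), with its 95% confidence interval (lines; limma, 3 against 3 libraries), ordered by control level. Every interval includes 0, and TAGLN3 at -0.20, from -0.44 to 0.04, lies farthest from it.

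Within both groups, the median deviation of replicate 4 from replicates 2 and 3 was larger than the median difference between the groups. Relative to the mean of replicates 2 and 3 of its own group, on the log2(FPKM + 1) scale, the median absolute deviation of replicate 4 over the 10 genes was 0.19 in the controls and 0.21 in the knockdown, against a median absolute group difference of 0.06. Over all genes tested these medians were 0.15, 0.20 and 0.07, so replicate 4 also exceeded the group difference at the median of all genes. The measures are not alike, since a single library varies more than a group mean. A larger deviation is thus expected even if replicate 4 were like the others. The deviation had the same sign in both groups for 9 of the 10, all but DPYSL2, where 71.9% of all genes tested had the same sign. BASP1, CRMP1, DPYSL4, DPYSL5 and TAGLN3 were higher in replicate 4 in both groups, and GAP43, MARCKS, MARCKSL1 and DPYSL3 lower. DPYSL3 stood at 83.2% of the mean of its group's other replicates in control replicate 4 and at 72.8% in knockdown replicate 4. MARCKSL1 stood at 87.7% and 79.6%, CRMP1 at 115% and 114%, BASP1 at 130.4% and 110.2%, and DPYSL5 at 134% and 108%. This comparison was chosen after the values were seen and has no test.

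**Figure D3:**
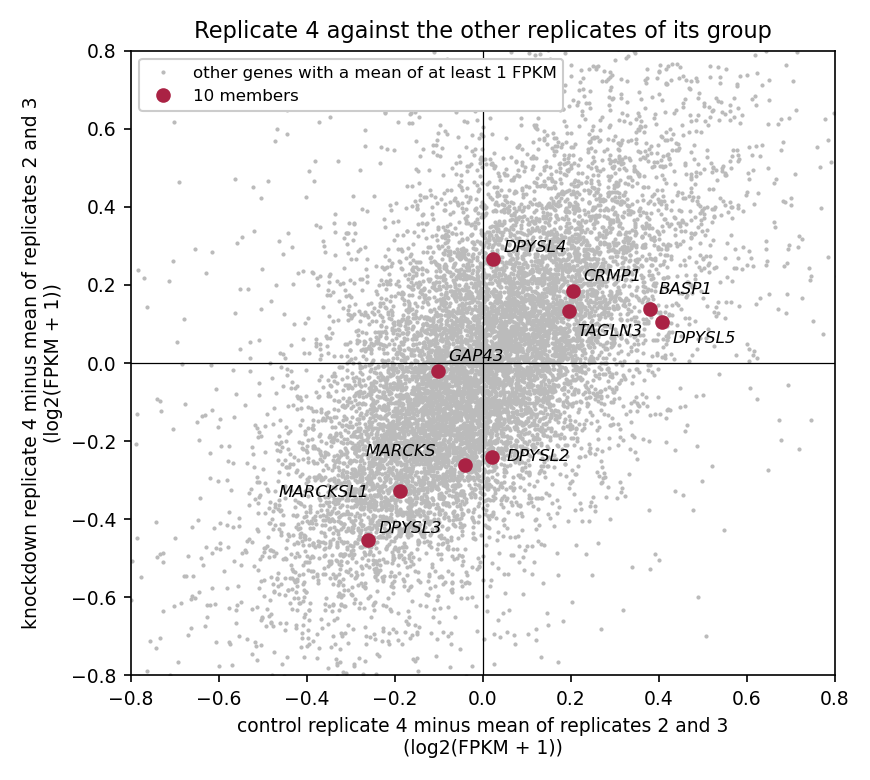
Replicate 4 minus the mean of replicates 2 and 3, in log2(FPKM + 1), for the control group (horizontal) and the knockdown group (vertical); red points are the 10 genes, grey points the other genes tested, of which 656 lie outside the axes. Of the 10, 9 have the same sign in both groups, with DPYSL3 lowest at -0.26 and -0.45 and CRMP1 at 0.21 and 0.18.

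The libraries numbered 4 also differed in marker levels. The summed level of the 10 mesenchymal neuroblastoma markers was 208 FPKM in control replicate 4 and 162 FPKM in knockdown replicate 4, within ranges of 208 to 315 FPKM in the controls and 162 to 308 FPKM in the knockdown. Nearly all of that sum was VIM, the intermediate filament vimentin, at 193 and 146 FPKM in the libraries numbered 4 and 272 to 302 FPKM in the others. Of the 10 markers 4 reached the filter, and PRRX1 and COL1A2 were listed at 0 in all 6 libraries, with YAP1 at most at 0.01 FPKM. Of those past the filter, only VIM was lower in both libraries numbered 4 than in each of the others. SNAI2 was at 3.46 FPKM in control replicate 4 and 5.54 FPKM in knockdown replicate 4, against 3.82 to 4.51 FPKM. NOTCH2 was at 8.43 and 7.21 FPKM there against 6.16 to 8.31 FPKM. CD44 was the lowest of its group in control replicate 4 and the highest of its group in knockdown replicate 4. The noradrenergic markers did not move one way either. Of the 6 past the filter, 4 were higher in both libraries numbered 4 than in each of the other 4 libraries, among them ISL1 (52.2 and 58.2 against 33.1 to 38.9 FPKM) and GATA3 (198 and 203 against 141 to 161 FPKM). DBH, the enzyme that makes noradrenaline, was lower in both (17.1 and 14.3 against 17.5 to 20.2 FPKM). MYCN was at 1998 and 1710 FPKM there against 1935 to 2169 FPKM, so control replicate 4 lay within the range of the others and knockdown replicate 4 below it. The summed level of all 8 markers was 3264 to 3320 FPKM in the controls and 3005 to 3170 FPKM in the knockdown. The part of these differences, and of the interferon response genes in knockdown replicate 4, in the levels of the growth cone genes was not tested.

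CRMP1 made up the largest part of the CRMP family in every library. Its share of the summed family FPKM was 42.6%, 41.9% and 46.0% in control replicates 2, 3 and 4 and 41.0%, 42.3% and 48.5% in the knockdown libraries. DPYSL3 made up 23.8%, 24.6% and 19.0% in control replicates 2, 3 and 4 and 25.1%, 24.0% and 18.3% in the knockdown libraries. In both libraries numbered 4, CRMP1 therefore took more of the family and DPYSL3 less, and DPYSL3 was close to the share of DPYSL2 (18.9% and 17.3% there). The CRMP1 to DPYSL3 ratio was 2.43 and 2.65 in those libraries and 1.63 to 1.79 in the other 4. By group the shares were CRMP1 43.5% ± 2.21 and 43.9% ± 4.01, DPYSL3 22.4% ± 3.01 and 22.5% ± 3.65, and DPYSL2 19.4% ± 0.47 and 19.1% ± 1.55 in control and knockdown (SD, n = 3). DPYSL5 averaged 9.95% ± 1.38 and 9.45% ± 0.56, and DPYSL4 4.70% ± 0.11 and 5.03% ± 0.66. Each of these 5 differences, at most 0.50 percentage points, was smaller than the larger of its SDs.

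**Figure D4:**
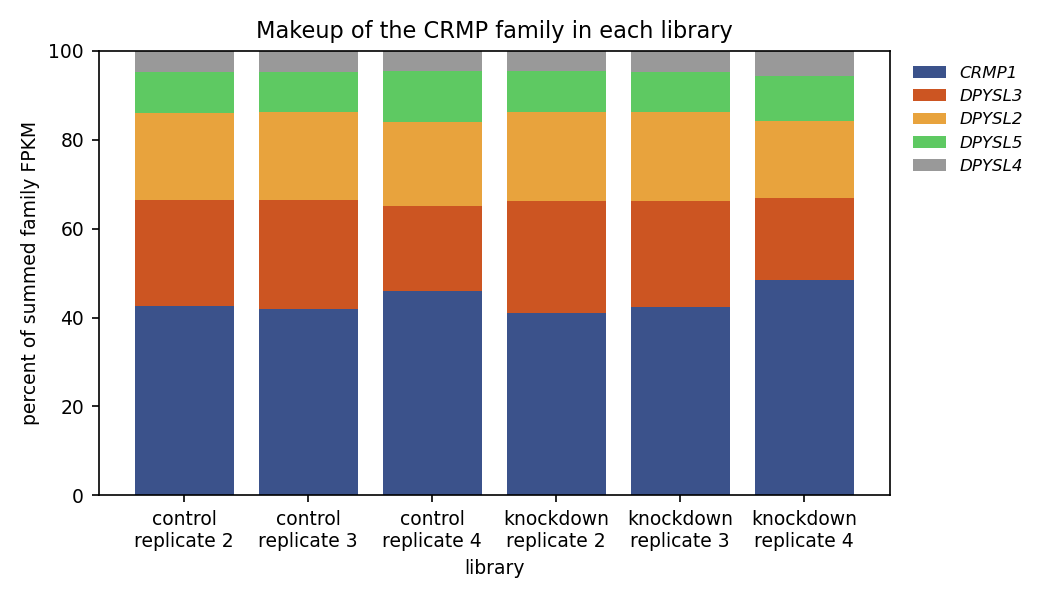
Share of each paralog in the summed FPKM of the 5 CRMP genes, 1 bar per library (percent, from 0 to 100). CRMP1 holds 41.0% to 48.5% and is largest in the 2 libraries numbered 4, where DPYSL3 is smallest (19.0% and 18.3%).

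Genes that act with these proteins likewise showed no call. Of the 23 listed genes of semaphorin signalling to CRMPs 17 reached the filter, with 0 higher and 0 lower past the threshold and a median log2 difference of -0.03. SEMA3A, the semaphorin ligand that collapses growth cones, was at 1.00 ± 0.16 and 1.201 ± 0.11 FPKM in control and knockdown, and its co-receptor NRP1 at most at 0.34 FPKM in any library (SD, n = 3). The signalling receptor PLXNA1 stood at 8.89 ± 2.22 and 8.52 ± 1.92 FPKM and the kinase FYN at 28.6 ± 4.63 and 33.2 ± 10.5 FPKM. CDK5, the kinase that primes CRMPs for GSK3, had 14.4, 13.7 and 16.4 FPKM in control replicates 2, 3 and 4 and at 12.6, 13.6 and 11.2 FPKM in the knockdown libraries. It was the only gene of this list whose groups did not overlap (log2 difference -0.24, SE 0.10, adjusted p = 0.9998, limma), against 4.35% of all genes lower without overlap. Its activator CDK5R1 differed by -0.09, GSK3B by -0.05, the kinase DYRK2 by 0.08 and ROCK2 by 0.09 on the log2 scale, each within 1 standard error.

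Of 19 CRMP binding partners 18 reached the filter, with 0 past the threshold in either direction and a median of -0.04. CYFIP1, which links DPYSL2 to the actin-nucleating WAVE complex, was the only one of the 18 without overlap, at 29.3, 31.1 and 32.97 FPKM in the controls and 29.2, 27.9 and 28.5 FPKM in the knockdown libraries (log2 difference -0.12, SE 0.07). That count is near the background, since 4.35% of all genes tested were lower without overlap and 8.36% were without overlap either way. The endocytic adaptor NUMB (0.08), the kinesin heavy chain KIF5B (-0.08) and neuronal tubulin TUBB3 (-0.20) had overlapping groups. TUBB3 was at 162 FPKM in knockdown replicate 4 and at 222 to 247 FPKM in the other 5 libraries.

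The protein kinase C and calmodulin list, which covers the regulators of GAP43 and MARCKS, had 17 of 22 genes past the filter, a median of 0.0030 and 0 calls in either direction. PRKCA stood at 7.85 ± 0.61 and 8.02 ± 1.74 FPKM, and PRKCB was listed at 0 in all 6 libraries. The calcineurin subunit PPP3CA stood at 27.6 ± 1.49 and 24.7 ± 2.06 FPKM (SD, n = 3). PLCB1 was higher and PRKCZ lower without overlap (log2 differences 0.14 and -0.33), 2 genes picked out after their values were seen, where 8.36% of all genes tested were without overlap. All 29 growth cone actin regulators reached the filter, with a median of -0.03 and 0 calls. PFN2 differed by -0.16, ENAH by -0.05 and TMSB10 by -0.02, with overlapping groups, and VASP, named after its values were seen, was the only one without overlap (0.24).

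Among relatives of TAGLN3, TAGLN2 was at 386 ± 49.7 and 368 ± 58.4 FPKM and CNN3 at 305 ± 20.2 and 281 ± 18.2 FPKM (SD, n = 3). TAGLN itself was at 0.91 to 1.42 FPKM in the controls and 1.54 to 1.79 FPKM in the knockdown libraries. It was the only 1 of 4 tested in this family without overlap and was named after its values were seen. Of all genes tested, 4.01% were higher without overlap. Of the proteins known to bind GAP43 mRNA, ELAVL4 differed by 0.03 on the log2 scale and IGF2BP1 was listed at 0 in all 6 libraries. ELAVL3 alone of the 4 tested was lower without overlap (-0.11), against 4.35% of all genes tested, and was again named after its values were seen.

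**Figure D5:**
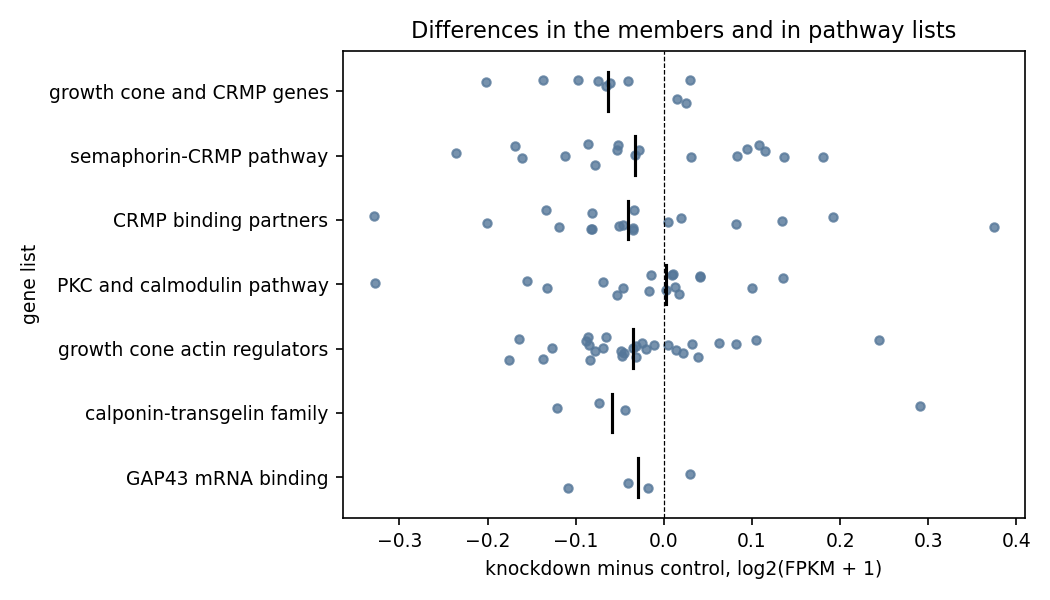
Fitted difference of each tested gene, knockdown minus control on the log2(FPKM + 1) scale, for the 10 growth cone and CRMP genes and 6 pathway lists (1 point per gene; points are spread vertically only for legibility; black bars are list medians). The list medians lie between -0.06 and 0.0030, and the point farthest to the right is TUBB2A at 0.37.

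The 5 genes whose log2(FPKM + 1) values were most like GAP43 over the 6 libraries, the other growth cone genes left out, were CCDC66, DPM1, SCOC, ANKRD37 and SEC62, with Pearson coefficients of 0.988, 0.978, 0.975, 0.974 and 0.968. The likeness rests on 6 points that share their libraries, and 59 genes (0.485%) exceeded 0.9.

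In the annotation the 10 genes lie on 8 chromosomes and differ in structure, from 1 annotated transcript for MARCKS and MARCKSL1 to 9 for DPYSL3. CRMP1 shares 159 exon bases with EVC on the opposite strand (5.01 FPKM in controls and 6.14 in knockdown), and DPYSL2 shares 71 with PNMA2 (25.2 and 24.1 FPKM). BASP1 likewise shares 75 with BASP1-AS1 and DPYSL5 shares 44 with AC013472.2, for which no values were listed. The sources used here do not say whether strand was counted, so reads from these stretches cannot be assigned to 1 gene. The set of RefSeq start windows used here, each of 250 bases, held 15 for 9 of the 10 genes and none for DPYSL2. Of these 66.7% held a GC box and 60.0% an E-box, against 63.9% and 53.5% of the windows of all genes past the filter, and 0 held TATAAA or TTTATA.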

How the data were processed

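The authors deposited 1 table of FPKM values with 1 column per library. The tools named in the submitters' processing notes are TopHat2 and Cuffdiff, and the build is hg38. Their versions, the annotation, filters and strand setting are not stated in the labels. Since FPKM is a share of the mapped total, a rise of abundant transcripts reduces the values of the rest. Columns were mapped by sample title. Genes averaging 1 FPKM or more over the 6 libraries were fitted with limma 3.58.1 (R 4.3.3) on log2(FPKM + 1), knockdown minus control, eBayes with trend, two-sided, no covariate. This scale understates changes of low genes. The members, the 12 gene lists and the 24 fixed genes from them were chosen with earlier results of these data known; 172 of 173 entries matched by symbol and 1 by an older symbol. Genes named by rule are the 10 members, those 24 fixed genes (whatever their values) and the 5 most like GAP43. PLCB1, PRKCZ, VASP, TAGLN, ELAVL3 and TUBB2A were named after their values were seen. Some markers, MIAT, overlapping genes and genes called in alternatives are named too. The values of 2 listed genes are not reported here. The fit was tested on simulated data first. Genomic positions are from GENCODE 29 (GRCh38). Alternatives were other pseudocounts, filters, scalings and eBayes options, weighting of libraries, a replicate block, and libraries left out.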

Additional observations from a re-analysis of the deposited data

How the results depend on the processing

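None of the 10 growth cone genes passed the threshold in any of the 17 alternatives, and 157 of 170 fitted differences kept their direction. The other filters, the eBayes options and the replicate block left every fitted difference as it was, so their directions could not reverse. Without control replicate 4, BASP1, CRMP1 and MARCKSL1 went to 0.086, 0.0070 and -0.038. Without knockdown replicate 2, MARCKS and MARCKSL1 went to -0.087 and -0.014, without knockdown replicate 3 BASP1 and MARCKSL1 to 0.00043 and -0.044, and without knockdown replicate 4 DPYSL3 and DPYSL4 to 0.076 and -0.074. Library weights rested mainly on control replicate 3 (7.98) and knockdown replicate 2 (3.34) and did not fully converge. They gave 0.025 for BASP1 and -0.071 for DPYSL4. They moved MARCKS from 0.030 to 0.17 and GAP43 from -0.066 to -0.13 (adjusted p = 0.170 and 0.119, limma). The value for GAP43 was the smallest adjusted p of any growth cone gene in the alternatives run. Leaving out both libraries numbered 4 gave 0.040 for BASP1 and -0.066 for DPYSL4. Leaving out 1 library at a time, the fitted difference ranged from -0.12 to 0.086 for BASP1, -0.12 to 0.0070 for CRMP1, -0.16 to 0.076 for DPYSL3, -0.074 to 0.079 for DPYSL4, -0.087 to 0.12 for MARCKS, -0.044 to 0.13 for MARCKSL1, -0.14 to -0.017 for DPYSL2, -0.22 to -0.00096 for DPYSL5, -0.10 to -0.032 for GAP43 and -0.28 to -0.14 for TAGLN3. The cause of these changes was not tested.

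Over all genes, 0 passed in either direction. With library weights 9 were higher and 13 lower, none of them a growth cone gene. MIAT was among the 13 lower (log2 difference -1.58, adjusted p = 0.00299, limma). With no filter 5 were lower (CTSLP2, KCNA7, LINC01058, SPECC1 and TSPYL6, each listed at 0 in all knockdown libraries and at most at 0.223 FPKM in the controls), and without both libraries numbered 4, 1 was lower (MIAT). Leaving out 1 library at a time, 0 to 1 of the 10 genes were higher and 0 to 3 lower without overlap, where 6.26% to 11.15% and 6.53% to 11.65% of all genes were; without both libraries numbered 4, 1 was higher (MARCKSL1) and 4 lower (GAP43, DPYSL4, DPYSL5 and TAGLN3), where 16.98% and 19.3% of all genes were. These overlap counts were added after the data were seen.

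Libraries with the same number deviated together at r = 0.09, 0.17 and 0.32 across genes for numbers 2, 3 and 4, and not each library was most like its own number, so the numbers were not taken as pairs. With the replicate number as a block, 0 genes passed and the smallest adjusted p of a growth cone gene was 0.894 (TAGLN3, -0.20, limma).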
